A study of Mus musculus with 39 samples.

Results

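A set of 10 genes of the extracellular protease system was followed through the left ventricles of mice with a phospholamban mutation and of mice with ischemic injury: the tissue inhibitors of metalloproteinases Timp1, Timp2, Timp3 and Timp4, the matrix metalloproteinases Mmp2, Mmp3, Mmp14 and Mmp15, and the transmembrane proteases Adam8 and Adam19. They were taken by symbol from a table of read counts, and each of the 10 symbols matched 1 of its 38293 genes. Phospholamban, encoded by Pln, restrains the calcium pump of the cardiomyocyte sarcoplasmic reticulum, and R14del removes codon 14, an arginine. All mice were C57BL6/J. Homozygous mice (R14del/R14del) and wild-type mice were sampled at 3, 5 and 8 weeks of age without surgery, and heterozygous mice (wt/R14del) at 8 weeks. The operated mice were male wild types. They had temporary ligation of the left anterior descending coronary artery and were sampled 3 days later at 12 weeks of age (ischemia-reperfusion, I/R), or permanent ligation and were sampled 8 weeks later at 20 weeks of age (myocardial infarction, MI), or had a sham operation. Tissue of the operated hearts came from myocardium remote from the infarct. Every group held 4 libraries except the 8-week wild type, which held 3. The 4 shams were 2 taken at 12 weeks and 2 taken at 20 weeks of age, and they served as 1 control group. The labels do not say whether the libraries of a group came from separate animals, so the p-values measure the spread between these libraries.

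Matrix metalloproteinases are zinc enzymes, secreted or anchored in the membrane, that cleave collagens, proteoglycans and other matrix proteins, and most are made as inactive precursors. The TIMP proteins bind the active site of these enzymes and block it. Timp2 protein also takes part in the activation of pro-Mmp2 by Mmp14 on the cell surface, and Timp3 protein, which stays bound to the matrix, inhibits several ADAM proteases as well. ADAM proteases release the outer parts of membrane proteins such as growth factor precursors, cytokine receptors and adhesion molecules. In the heart this system is best known for its part in the turnover of interstitial collagen after injury and in the dilation of the failing ventricle. Transcript levels alone, as measured here, do not show enzyme activity.

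The 39 libraries held 9402904 to 19320791 counts each. Levels are given as counts-per-million values (CPM) of the library total. Changes are log2 ratios of group means from edgeR's quasi-likelihood test, which rescales libraries for composition (TMM), and need not equal a plain ratio of CPM values. A gene was called when its Benjamini-Hochberg adjusted p over all genes tested was under 0.05. Markers of ventricular cardiomyocytes were high in all libraries, with a sum of 34261 to 100957 CPM over 8 genes. Pln RNA cannot check the genotype of a codon deletion; its median level was 1917 CPM in homozygous mice at 8 weeks and 5067 CPM in wild type. The fibroblast markers (9 genes) and the macrophage markers (11 genes) summed lowest in replicate 1 among the 8-week homozygous hearts. In heterozygous replicate 2 the fibroblast sum, at 4375 CPM, was the highest of its group. In bulk tissue, fewer cells of a type and less RNA per cell cannot be told apart.

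All 10 genes passed the low-count filter in every comparison. Between homozygous and wild-type hearts 0 of 10 were called at 3 weeks, where 0% of all 13427 genes tested were called by edgeR; 1515 genes had an unadjusted p under 0.05, and DESeq2 called 112. At 5 weeks 10 of 10 were called, 7 higher and 3 lower, against 43.7% of all genes (22.3% higher and 21.4% lower). By 8 weeks 7 were higher and 1 lower, against 59.8% of all genes (30.8% higher and 29% lower). Neither the 10 genes nor any of the other genes tested passed in heterozygous against wild-type hearts (0% called). Homozygous against heterozygous hearts gave 8 higher and 1 lower (61.9% of all genes called, 32% higher and 30% lower). After I/R 4 of 10 were higher and 0 lower than in shams, against 31% of all genes (16.9% higher and 14.1% lower). In MI 4 were higher and 1 lower, against 11.4% of all genes (6.62% higher and 4.77% lower). The median log2 change of the 10 genes was 0.37, 0.54 and 2.13 at 3, 5 and 8 weeks, 0.36 in I/R and 0.60 in MI, while the median over all genes lay between -0.0231 and 0.0222 in those comparisons. The 10 genes, and the gene lists below, were chosen with earlier results of these data known. These counts and medians therefore do not test them as sets.

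**Figure D1:**
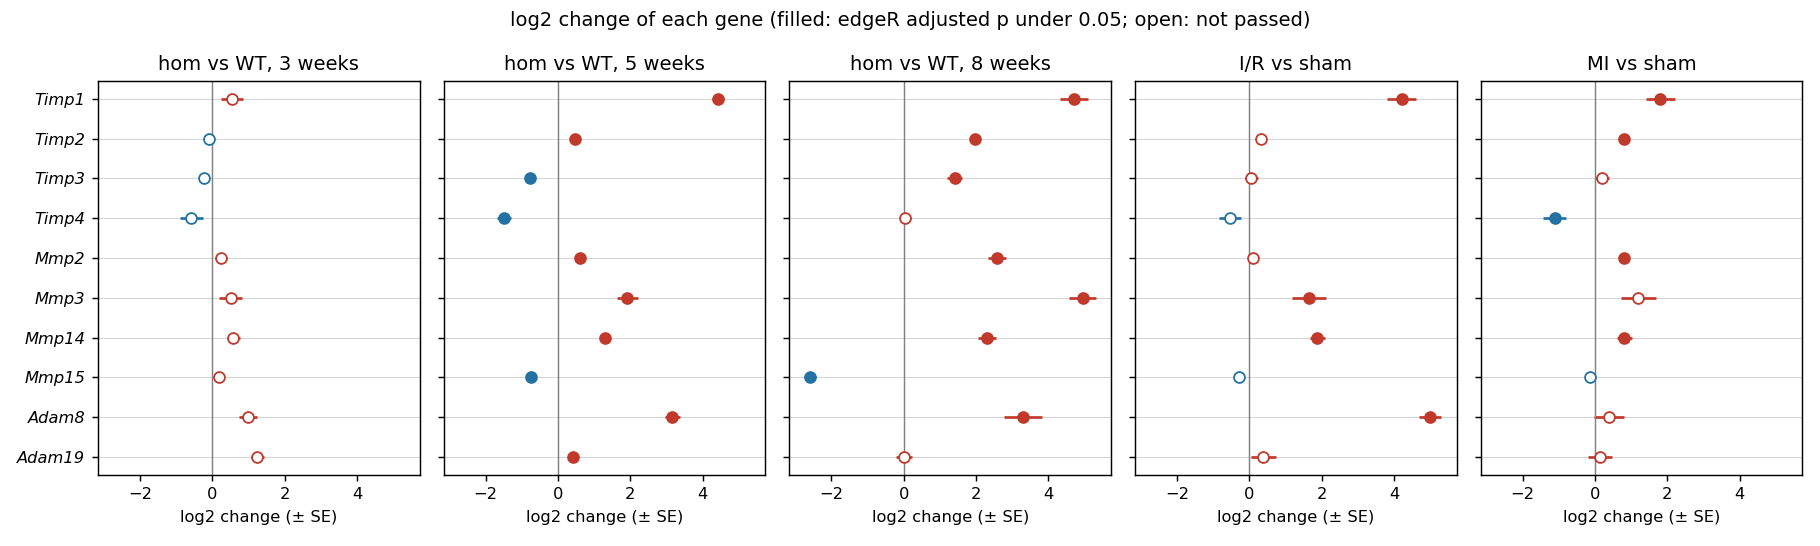
The log2 change of each gene (horizontal axis, with its SE as a bar) in 5 comparisons; filled points had an edgeR adjusted p under 0.05 and open points did not. At 5 and 8 weeks Timp1 sat at 4.42 and 4.70, and Mmp15 moved from 0.19 at 3 weeks to -2.59 at 8 weeks.

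Timp1 (chrX:20870166-20874735, plus strand, GRCm38, ENSMUSG00000001131) encodes a secreted inhibitor that many tissues raise on injury, whereas Timp4 (chr6:115241892-115252205, minus strand, ENSMUSG00000030317) encodes the inhibitor best known from the heart. They gave the widest contrast among the inhibitors, so their promoter windows are shown, 250 bases before the start and 50 from it on, from RefSeq on GRCm38.p6 (chrX:20869916-20870215, plus strand, and chr6:115252156-115252455, minus strand).
Timp1 promoter: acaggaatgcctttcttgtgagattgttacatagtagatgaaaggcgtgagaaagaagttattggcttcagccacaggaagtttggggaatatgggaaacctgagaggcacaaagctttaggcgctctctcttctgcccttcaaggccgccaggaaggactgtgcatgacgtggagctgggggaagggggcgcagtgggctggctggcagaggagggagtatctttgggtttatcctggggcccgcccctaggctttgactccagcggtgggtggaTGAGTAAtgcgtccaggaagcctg
Timp4 promoter: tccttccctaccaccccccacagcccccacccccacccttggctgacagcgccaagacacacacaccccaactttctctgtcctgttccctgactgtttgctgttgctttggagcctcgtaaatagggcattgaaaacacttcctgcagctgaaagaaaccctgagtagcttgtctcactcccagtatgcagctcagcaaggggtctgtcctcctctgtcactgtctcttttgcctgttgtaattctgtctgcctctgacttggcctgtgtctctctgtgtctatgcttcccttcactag
Capitals mark matches to the AP-1 letters TGANTCA, to an AP-1 variant, TGAGTAA, or to a TATA box, TATAAA, each searched on both strands. The Timp1 window held TGAGTAA at position 26 from the start (the start base is 0), a string found in 2.68% of 32851 RefSeq promoter windows of this length. No capitals appear in the Timp4 window. The GC box letters GGGCGG lie on the opposite strand of the Timp1 window, at position -8, and read ccgccc in the printed strand. The Ets letters AGGAAG, left in lower case, occur in the Timp1 window, and AGGAAG lies on the opposite strand of the Timp4 window. GGGCGG lies in 35.7% and AGGAAG in 35.4% of all windows. Of the 9 genes with a window, 7 held GGGCGG and 6 held AGGAAG in at least 1 window. Adam19 had 3 windows, so these counts by gene are not on the same basis as the shares by window.

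Timp1 stood low in wild-type hearts of each age and was raised in both kinds of disease. Its level at 5 weeks was 7.10, 3.00, 3.34 and 3.67 CPM in the wild-type libraries and 118, 115, 79.8 and 107 CPM in the homozygous ones. The lowest homozygous library was above the highest wild-type library by more than the whole range of the wild type. The log2 change was 4.42 ± 0.17 (SE), a 21.4-fold rise (edgeR adjusted p = 1.26e-12). At 8 weeks the wild-type libraries held 1.74, 2.83 and 3.09 CPM and the homozygous ones 45, 90.8, 63.8 and 99.7 CPM. Again the groups did not overlap, and the change was 4.70 ± 0.38 (adjusted p = 1.06e-06, edgeR). At 3 weeks the homozygous libraries fell into a lower pair, at 3.92 and 3.53 CPM, and a higher pair, at 8.71 and 8.92 CPM, around the wild-type range of 3.17 to 5.42 CPM. That difference, 0.55 ± 0.30, did not pass (edgeR adjusted p = 0.515).

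Timp1 was also high after I/R, at 76.1, 73.5, 145 and 106 CPM, which overlaps the homozygous libraries of 5 and 8 weeks. The 12-week shams held 5.83 and 9.80 CPM and the 20-week shams 1.17 and 2.11 CPM. The sham ages thus did not overlap, but each had 2 libraries and the difference was not tested. Against all 4 shams the change was 4.21 ± 0.40 (edgeR adjusted p = 3.33e-06), and against the 12-week shams alone it was 3.51 ± 0.36. In MI hearts Timp1 was at 13.6, 25.6, 17.5 and 13.7 CPM, above every sham and below every I/R library. The change in MI was 1.81 ± 0.41 (edgeR adjusted p = 0.0115) against all shams and 3.20 ± 0.45 (adjusted p = 0.00364) against the 20-week shams of the same age. I/R exceeded MI by 2.40 ± 0.34 (edgeR adjusted p = 0.000232). In heterozygous hearts 3 libraries were at 2.59 to 3.08 CPM and replicate 2 at 7.71 CPM, and the difference from wild type did not pass.

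**Figure D2:**
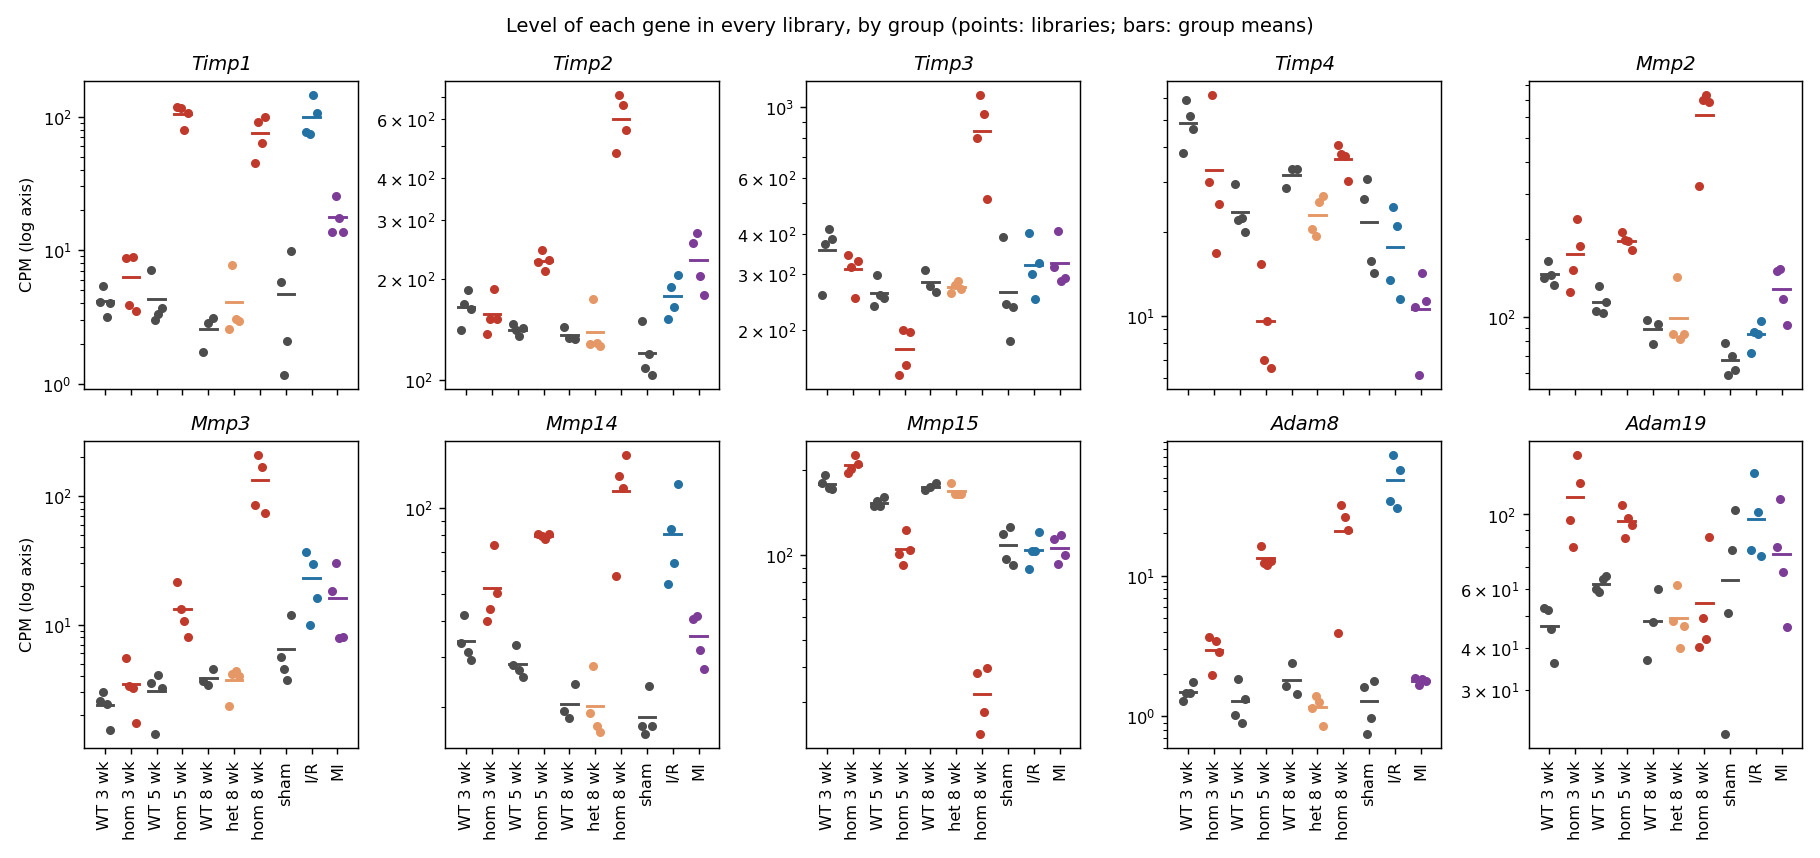
The level of each of the 10 genes in CPM (vertical log axis) in every library (points), with group means as bars; WT is wild type, hom homozygous, het heterozygous. Timp1 and Adam8 were high in the 5- and 8-week homozygous and I/R groups, Mmp2, Timp2, Timp3 and Mmp3 were highest in the 8-week homozygous group, and Mmp15 was lowest there.

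Timp2 and Timp3, the inhibitors with the highest length-scaled levels in healthy hearts, moved apart at 5 weeks and together at 8 weeks. Timp2 rose at 5 weeks from 147, 141, 135 and 143 CPM in wild type to 225, 245, 211 and 228 CPM (log2 change 0.48 ± 0.06, edgeR adjusted p = 4.31e-06). At 8 weeks it reached 477, 709, 661 and 559 CPM against 144, 133 and 132 CPM, a change of 1.97 ± 0.14 (edgeR adjusted p = 5.4e-07). Both age groups were separated without overlap.
Timp3 went down at 5 weeks: its level was 237, 297, 257 and 253 CPM in wild type and 145, 200.2, 155 and 197 CPM in homozygous hearts (-0.79 ± 0.09, edgeR adjusted p = 9.3e-07). At 8 weeks it was up, at 799.9, 1092, 951 and 517 CPM against 309.8, 275 and 264 CPM (1.41 ± 0.20, adjusted p = 7.05e-05, edgeR). Every 5-week homozygous library was thus below, and every 8-week one above, the wild type of its age. The genotype effect at 8 weeks exceeded that at 5 weeks by 2.23 ± 0.27 for Timp3 and by 1.52 ± 0.17 for Timp2 (edgeR adjusted p = 2.67e-07 and 5.96e-08 in 1 fit of all 39 libraries).

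In the operated hearts Timp3 did not pass in either model, with medians of 312 CPM after I/R, 304 CPM in MI and 239 CPM in shams. Timp2 was raised in MI (256, 275, 204 and 180.0 CPM against 151 and 104 CPM in the 12-week and 109 and 119.7 CPM in the 20-week shams), by 0.81 ± 0.13 (edgeR adjusted p = 0.0015). After I/R its libraries, at 152 to 206 CPM, also lay above all shams, but the change of 0.33 ± 0.13 missed the threshold (edgeR adjusted p = 0.0652); with libraries scaled by their totals alone it passed at 0.56 ± 0.15. The 2 models differed in Timp2 by -0.48 ± 0.13, I/R minus MI (edgeR adjusted p = 0.016), which was no longer called with library-total scaling (adjusted p = 0.0876) and without MI replicate 1 or MI replicate 2.

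Timp4 was the inhibitor that was not called against wild type at 8 weeks. Its wild-type median was 49.1 CPM at 3 weeks, 22.2 CPM at 5 weeks and 33.5 CPM at 8 weeks; the ages were not tested against each other. At 5 weeks homozygous hearts held 15.3, 6.99, 9.61 and 6.53 CPM against 29.5, 22.0, 22.3 and 19.9 CPM in wild type, without overlap. The log2 change was -1.50 ± 0.20, a 2.82-fold fall (edgeR adjusted p = 6.86e-06). By 8 weeks the homozygous libraries, at 40.5, 37.7, 37.2 and 30.2 CPM, overlapped the wild-type libraries at 28.5, 33.5 and 33.5 CPM, and the difference was 0.04 ± 0.15 (edgeR adjusted p = 0.83). Between the ages the genotype effect changed by 1.56 ± 0.45 (edgeR adjusted p = 0.00841). MI hearts held 10.8, 6.18, 14.2 and 11.4 CPM, all below the shams at 26.1, 14.3, 30.7 and 15.7 CPM. That fall of 1.12 on the log2 scale (SE 0.31, edgeR adjusted p = 0.0315) was not called without MI replicate 1, MI replicate 2, 12-week sham replicate 1 or 20-week sham replicate 1. It was also not called against the 20-week shams alone (adjusted p = 0.0546) or with a replicate block. Timp4 overlaps the exons of Syn2 on the opposite strand, and Timp3 those of Syn3. How the counting treated strand is not given in the sources used here. Whether reads of such partners were told apart is therefore not known. Syn2 itself held 2383 counts in all libraries together.

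Scaled per kilobase of merged exon, where the genes can be compared with each other, the sum of the 4 inhibitors was 77.2 ± 3.14 CPM per kb (SD, n = 4) in 5-week wild type and 199.7 ± 24.0 in homozygous hearts. At 8 weeks it was 78.1 ± 3.39 (n = 3) against 348 ± 62.2 (n = 4). Timp1 made up 6.21% ± 2.59 of that sum in 5-week wild type and 59.0% ± 3.49 in homozygous hearts. In 8-week homozygous hearts its share was 24.2% ± 7.41, with Timp2 at 44.4% and Timp3 at 29.6%. I/R had a total of 200.5 ± 32.1 and a Timp1 share of 55.1% ± 9.35, and in MI the share was 16.3% ± 2.92. The length-scaled ratio of Timp1 to Timp4 was between 0.906 and 1.6 in the 5-week wild-type libraries and between 51.2 and 109 in the homozygous ones. At 8 weeks the homozygous ratios were 7.37 to 22.0, against 0.405 to 0.611 in wild type. The ratio was 20.0 to 60.9 after I/R, 7.98 to 27.5 in MI and 0.253 to 4.56 in shams. These sums and ratios were not tested.

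**Figure D3:**
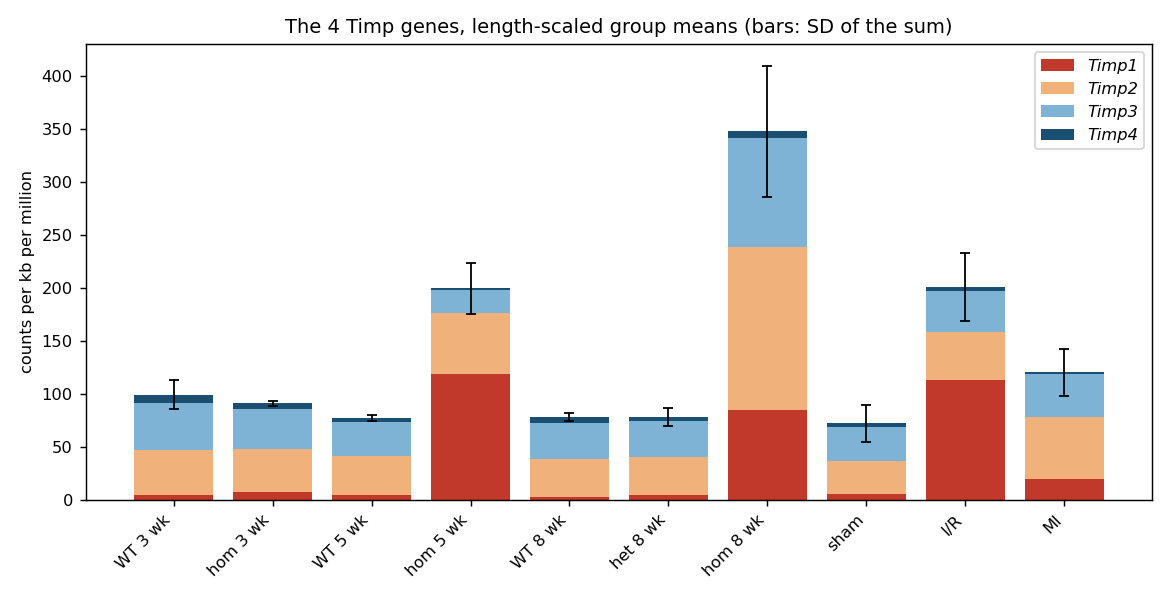
Stacked group means of the 4 Timp genes in CPM per kb of exon, with the SD of their sum over libraries as a black bar. Timp1 filled most of the sum in 5-week homozygous and I/R hearts, and the 8-week homozygous sum of 348 was the highest of the 10 groups.

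Among the 6 proteases of the set, Mmp3 (chr9:7445822-7455975, plus strand, GRCm38, ENSMUSG00000043613), the secreted stromelysin that cleaves proteoglycans and other metalloproteinase precursors, rose most at 8 weeks. Mmp15 (chr8:95352268-95375080, plus strand, ENSMUSG00000031790), a membrane-anchored metalloproteinase, was the one that fell. Their RefSeq promoter windows on GRCm38.p6 (chr9:7445572-7445871 and chr8:95352046-95352345, both plus strand) are shown with the same letters in capitals.
Mmp3 promoter: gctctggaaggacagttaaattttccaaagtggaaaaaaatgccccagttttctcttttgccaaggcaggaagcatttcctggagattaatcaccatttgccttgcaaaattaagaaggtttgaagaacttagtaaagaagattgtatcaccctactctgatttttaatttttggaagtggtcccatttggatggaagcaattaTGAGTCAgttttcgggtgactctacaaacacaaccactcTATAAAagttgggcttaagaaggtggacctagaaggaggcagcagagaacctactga
Mmp15 promoter: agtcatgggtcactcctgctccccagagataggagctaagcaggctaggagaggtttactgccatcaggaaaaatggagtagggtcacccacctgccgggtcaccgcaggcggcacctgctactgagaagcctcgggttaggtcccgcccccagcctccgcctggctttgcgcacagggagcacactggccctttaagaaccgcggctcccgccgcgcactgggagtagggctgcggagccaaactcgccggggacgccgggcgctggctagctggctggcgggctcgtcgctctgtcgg
The Mmp3 window held TGAGTCA, a match to TGANTCA, at position -46 and TATAAA at position -7. TGANTCA lies in 7.81% and TATAAA in 13.6% of all windows. Among the 9 genes with a window, TGANTCA was otherwise found only in the second Adam19 window, and TATAAA in no other. The Mmp15 window has no capitals and holds GGGCGG on the opposite strand at position -106. For Mmp2 no window is shown. These are matches of letters, and no binding was measured.

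Mmp3 was scarce in healthy hearts and abundant in 8-week homozygous hearts. At 8 weeks the wild-type libraries held 3.64, 3.43 and 4.53 CPM and the homozygous ones 85.9, 209.6, 168 and 74.4 CPM. No homozygous library came near the wild-type range, and the change was 4.95 ± 0.38, or 30.9-fold (edgeR adjusted p = 8.55e-07). At 5 weeks the rise was smaller, from 3.55, 1.41, 4.06 and 3.25 CPM to 21.6, 13.3, 10.6 and 8.05 CPM (1.91 ± 0.29, edgeR adjusted p = 2.95e-05). The increase of the effect from 5 to 8 weeks was 3.06 ± 0.69 (edgeR adjusted p = 0.000975). After I/R Mmp3 was at 37.1, 9.97, 29.9 and 16.2 CPM against 5.65 and 11.9 CPM in the 12-week and 4.57 and 3.76 CPM in the 20-week shams. The groups overlapped, and the change of 1.65 ± 0.47 (edgeR adjusted p = 0.0151) was not called without 20-week sham replicate 2 (adjusted p = 0.0511) or against the 12-week shams alone (adjusted p = 0.179). In MI it was at 7.89 to 30.1 CPM and did not pass (edgeR adjusted p = 0.121).

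Mmp2 and Mmp14 form a known pair, since Mmp14, a membrane-anchored enzyme, activates the gelatinase Mmp2. Mmp2 (chr8:92827291-92853420, plus strand) rose at 5 weeks from 105, 132, 103 and 114 CPM to 214, 199, 198 and 182 CPM (0.60 ± 0.08, edgeR adjusted p = 4.4e-06). At 8 weeks it rose from 97.2, 78.3 and 93.7 CPM to 323, 701, 734 and 686 CPM (2.58 ± 0.25, adjusted p = 3.69e-06, edgeR). Replicate 1, the lowest of the 8-week homozygous libraries, was still above every wild-type library. Its length-scaled mean there, 181 ± 57.2 CPM per kb, was the highest of the 10 genes.
Mmp14 (chr14:54431612-54445364, plus strand) was at 28.0, 33.0, 27 and 25.5 CPM in 5-week wild type and at 81.1, 79.4, 77.8 and 80.7 CPM in homozygous hearts, with the mutant libraries close together. The change was 1.29 ± 0.08 (edgeR adjusted p = 2.18e-10). At 8 weeks 57.8, 129, 117 and 153 CPM stood against 19.4, 18.3 and 24.1 CPM (2.29 ± 0.25, edgeR adjusted p = 9.25e-06). From 5 to 8 weeks the genotype effect grew by 2.01 ± 0.26 for Mmp2 and by 1.03 ± 0.31 for Mmp14 (edgeR adjusted p = 5.58e-07 and 0.0103).

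The 2 operated models differed in this pair. They also differed in the kind of ligation, in time after surgery and in age, which cannot be told apart here. Mmp14 was raised after I/R, to 53.9, 84.1, 64.0 and 121 CPM from 17.1 and 17.1 CPM in the 12-week and 16.1 and 23.8 CPM in the 20-week shams (1.88 ± 0.21, edgeR adjusted p = 1.34e-05). Mmp2 was not called after I/R, with 71.8, 87.2, 85.7 and 95.9 CPM against 59.2 to 78.6 CPM in shams (0.11 ± 0.13, edgeR adjusted p = 0.58). In MI Mmp2 was at 151, 153, 117 and 92.4 CPM, above all shams (0.81 ± 0.13, edgeR adjusted p = 0.00145). Mmp14 in MI, at 40.8, 41.7, 31.8 and 27.3 CPM, was also above all shams (0.81 ± 0.21, adjusted p = 0.0248, edgeR). That Mmp14 call ended on leaving out MI replicate 1, MI replicate 2, either 12-week sham or 20-week sham replicate 1, and against the 20-week shams alone (adjusted p = 0.17). Directly compared, I/R exceeded MI by 1.07 ± 0.20 for Mmp14 and fell short of it for Mmp2 (-0.71 ± 0.13; edgeR adjusted p = 0.00167 and 0.00142).

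Mmp15 was the protease that fell. At 3 weeks it was slightly higher in homozygous hearts, at 194, 201, 226 and 209.8 CPM against 180.0, 191, 172 and 171 CPM, without overlap, but the change of 0.19 ± 0.07 did not pass (edgeR adjusted p = 0.395). At 5 weeks it was at 101, 92.1, 122 and 104 CPM against 149, 155, 148 and 159.7 CPM (-0.75 ± 0.08, edgeR adjusted p = 6.12e-07). At 8 weeks it was at 38.1, 23.1, 27.7 and 39.9 CPM against 169.8, 174 and 179.8 CPM, a 6.02-fold fall (-2.59 ± 0.17, edgeR adjusted p = 4.16e-07). The genotype effect changed by -0.95 ± 0.17 from 3 to 5 weeks and by -1.81 ± 0.18 from 5 to 8 weeks (edgeR adjusted p = 0.000189 and 9.03e-09). The same 5-week effect enters these values, so they are not separate evidence. Neither injury moved it past the threshold: shams ranged from 91.7 to 126 CPM, I/R from 88.8 to 121 CPM and MI from 92.9 to 118 CPM. The change was -0.29 ± 0.12 after I/R and -0.14 ± 0.12 in MI (edgeR adjusted p = 0.0838 and 0.517). The 8-week homozygous effect was below the MI effect by 2.43 on the log2 scale (-2.43 ± 0.18, edgeR adjusted p = 4.36e-11). On the length-scaled level, Mmp15 went from 32.3 ± 0.933 in 8-week wild type, above Mmp2 at 26.6 ± 2.99, to 5.96 ± 1.5 in homozygous hearts, far under Mmp2.

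Adam8 (chr7:139978932-139992562, minus strand, ENSMUSG00000025473), a sheddase known from myeloid cells, was at most at 2.41 CPM in every wild-type and sham library. It rose at 5 weeks from 1.03, 1.86, 0.903 and 1.34 CPM to 16.3, 12.4, 12.0 and 12.8 CPM (3.16 ± 0.21, edgeR adjusted p = 1.13e-09). At 8 weeks it was at 3.91, 32.1, 26.2 and 21 CPM against 1.63, 2.41 and 1.44 CPM (3.30 ± 0.53, edgeR adjusted p = 0.00016). Replicate 1 was far below the other 3 homozygous libraries yet above all wild-type ones; without it the change was 3.63 ± 0.23. After I/R came the highest mean of the series, from libraries at 33.9, 72.7, 30.4 and 56.6 CPM against 0.744 to 1.78 CPM in shams, a 32.1-fold rise (5.00 ± 0.30, edgeR adjusted p = 1.79e-07). In MI Adam8 was at 1.66 to 1.87 CPM and did not pass against the pooled shams (0.39 ± 0.41, edgeR adjusted p = 0.588). The 12-week shams held 1.61 and 1.78 CPM and the 20-week shams 0.744 and 0.979 CPM. Every MI library thus lay above the 2 shams of its own age. Those shams held only 7 and 13 Adam8 counts, against 18 to 26 in the MI libraries. I/R exceeded MI by 4.62 ± 0.29 (edgeR adjusted p = 2.47e-07). At 3 weeks the homozygous libraries, at 1.96 to 3.69 CPM, lay above the wild type at 1.29 to 1.76 CPM, but the change of 0.98 ± 0.25 did not pass (edgeR adjusted p = 0.267). The exons of Gm16201 on the opposite strand overlap Adam8, and 447 counts were assigned to it in all.

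Adam19 (chr11:46055992-46147343, plus strand, ENSMUSG00000011256), a membrane protease known from heart valve and septum formation, ran against this order, with its highest mean in the 3-week homozygous hearts. There it was at 96.1, 80.2, 151 and 124 CPM against 52.5, 52.1, 45.7 and 36.1 CPM in wild type, without overlap. The change of 1.24 ± 0.18 had an unadjusted p of 1.89e-05 and an edgeR adjusted p of 0.17. It was called by DESeq2 (1.24 ± 0.18, adjusted p = 5.49e-08), without the low-count filter (adjusted p = 0.00131), in a fit of all 39 libraries (adjusted p = 0.0397) and without homozygous replicate 2 (adjusted p = 0.0135). With library-total scaling Adam19 was not called, as 0 genes passed there. Leaving out single libraries gave changes of 1.09 to 1.37 and an edgeR adjusted p of up to 0.549. At 5 weeks it was at 107, 85.2, 97.7 and 92.9 CPM against 59.9, 58.6, 64.5 and 65.4 CPM (0.42 ± 0.08, edgeR adjusted p = 0.000256), but not called in the fit of all 39 libraries (adjusted p = 0.246). At 8 weeks 40.4, 49.2, 42.5 and 85.4 CPM overlapped the wild-type 37.0, 47.7 and 60.1 CPM, and the change was 0.0015 ± 0.22. Shams alone spread from 22.2 to 103 CPM, and neither injury passed. The decline of the genotype effect from 3 to 5 weeks (-0.83 ± 0.39) and from 5 to 8 weeks (-0.39 ± 0.40) did not pass (edgeR adjusted p = 0.124 and 0.501).

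Differences of the genotype effect between ages passed for 4 of the 10 genes from 3 to 5 weeks and for 7 from 5 to 8 weeks, against 20.4% (11.1% higher and 9.29% lower) and 28.2% (14.4% higher and 13.8% lower) of all genes. From 3 to 5 weeks Timp1 (3.84 ± 0.55), Adam8 (2.17 ± 0.59) and Timp2 (0.56 ± 0.16) gained and Mmp15 lost (edgeR adjusted p between 7.05e-06 and 0.0126). From 5 to 8 weeks the effects on Timp2, Timp3, Timp4, Mmp2, Mmp3 and Mmp14 rose and that on Mmp15 fell, as given above. Timp1 and Adam8 differed between 5 and 8 weeks by 0.32 ± 0.58 and 0.16 ± 0.59, which did not pass (edgeR adjusted p = 0.73 and 0.871). The 5-week effect enters both differences.
Set against MI, the 8-week homozygous effect was higher for 8 genes and lower for Mmp15, so that 9 of 10 differed, against 37.4% of all genes (19.6% higher and 17.7% lower). Mmp3 differed by 3.78 ± 0.63, Adam8 by 2.94 ± 0.64 and Timp1 by 2.92 ± 0.59 (edgeR adjusted p = 1.52e-05, 0.000461 and 0.00017). Mmp2 differed by 1.80 ± 0.26, Mmp14 by 1.51 ± 0.31, Timp3 by 1.24 ± 0.27 and Timp2 by 1.19 ± 0.17. Timp4 differed by 1.18 ± 0.44 (edgeR adjusted p = 0.034), a call lost on leaving out any of 9 single libraries, and Adam19 by -0.11 ± 0.40, which did not pass. Those values rest on the pooled shams. The levels of Timp1, Mmp3 and Adam8 were higher in the 12-week than in the 20-week shams, without overlap, and those of the other genes overlapped. With 2 libraries of each age such gaps are frequent by chance. The sham ages were not tested against each other. Between I/R and MI, 3 of the 10 genes were higher and 2 lower (20.1% of all genes called, 11.2% higher and 8.84% lower); both contrasts with sham share the same 4 controls.

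A single mutant copy left no called change in these genes at 8 weeks. By edgeR 0 genes passed, 326 had an unadjusted p under 0.05, and DESeq2 called 0. Timp4 came nearest, at 20.5, 19.2, 25.4 and 26.8 CPM against 28.5, 33.5 and 33.5 CPM in wild type, without overlap (-0.43 ± 0.16, unadjusted p = 0.0155, edgeR adjusted p = 1). Adam8 also did not overlap, at 0.853 to 1.39 CPM against 1.44 to 2.41 CPM, a difference of -0.62 ± 0.60 that did not pass. Heterozygous replicate 2 was the highest of its group for Timp1, Timp2, Mmp2 and Mmp14. Homozygous hearts exceeded heterozygous ones in Timp1 by 4.00 ± 0.31, in Mmp3 by 4.97 ± 0.33 and in Adam8 by 3.92 ± 0.49 (edgeR adjusted p = 6.11e-07, 2.58e-07 and 2.06e-05). Timp4 was higher by 0.48 ± 0.14 (edgeR adjusted p = 0.0116), though not in the fit of all 39 libraries (adjusted p = 0.126).

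Markers of other cell types also changed. Each count of them is to be read against the share of all genes called in its comparison. That share was 43.7% at 5 weeks, 59.8% at 8 weeks, 31% after I/R and 11.4% in MI. All 11 macrophage markers (among them Adgre1, Csf1r, Cd68 and C1qa) rose at 5 weeks, at 8 weeks and after I/R, and 3 of 11 rose in MI. Their sum was 479 to 522 CPM in 5-week wild type and 2137 to 2793 CPM in homozygous hearts, and 440.4 to 573 against 1601 to 3315 CPM at 8 weeks. It was 292 to 518 CPM in shams, 1347 to 2206 CPM after I/R and 507 to 767 CPM in MI. Of the fibroblast markers (Pdgfra, Dcn, Col1a1 and others), 8 of 9 rose at 5 weeks, 9 of 9 at 8 weeks, 6 after I/R with 1 lower, and 6 in MI. Their sum was 3353 to 3368 CPM in 5-week wild type and 7509 to 9244 CPM in homozygous hearts, and 2753 to 3238 against 8576 to 14623 CPM at 8 weeks. It was 2297 to 3440.3 CPM in shams, 5785 to 9699 CPM after I/R and 3581 to 5427 CPM in MI. Activated fibroblast markers (7 genes) summed to 1288 to 2178 against 611 to 748 CPM at 5 weeks and 3927 to 4872 against 385 to 419 CPM at 8 weeks. That sum was 303 to 459 CPM in shams, 1296 to 2866 CPM after I/R and 900 to 2329 CPM in MI. The recruited monocyte markers rose in 4 of 4 genes at 5 weeks, in both genes tested at 8 weeks and in 4 of 4 after I/R. Their sum was 39.6 to 57.9 against 4.39 to 5.74 CPM at 5 weeks and 46.2 to 76.8 against 3.54 to 9.90 CPM in shams. Neutrophil markers summed to 28.8 to 52.2 CPM after I/R and 3.40 to 8.32 CPM in shams, where Ly6g was at 0. In homozygous hearts that sum was 6.54 to 9.88 against 2.92 to 4.06 CPM at 5 weeks and 6.73 to 14.2 against 2.01 to 2.89 CPM at 8 weeks, where 3 of 3 genes tested rose.
Endothelial markers fell at 5 weeks in 7 of 7 genes (sum 1249 to 1299 against 1863 to 2083 CPM). At 8 weeks 3 rose and 3 fell, and the sums overlapped (1450 to 1893 against 1453 to 1735 CPM). Smooth muscle and pericyte markers fell in 6 of 7 genes at 5 weeks and in 4 of 7 at 8 weeks, with 1 higher; their sum was 735 to 893 against 1327 to 1426 CPM at 8 weeks. Ventricular cardiomyocyte markers fell in homozygous hearts (7 of 8 at 5 weeks, 6 of 8 at 8 weeks), and 7 of 8 fell after I/R. For lists this short, the 8-week counts of these and of the smooth muscle markers lie near the 59.8% of all genes called. Atrial cardiomyocyte markers (4 genes: Myl7, Myl4, Sln and Nppa) summed to 5173 to 7747 against 198 to 459 CPM at 5 weeks and 12512 to 20655 against 284 to 551 CPM at 8 weeks. That sum was 228 to 621 CPM in shams, 577 to 1077 CPM after I/R and 2093 to 5509 CPM in MI. The part of each gene in it is not given, and no cell type is named from it. T cell markers summed to 1.93 to 26.0 against 1.23 to 1.27 CPM at 8 weeks. The part of these shifts in the changes of the 10 genes was not tested.

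For other proteases of the same families, each count is to be read against the share of all genes called in its comparison: 43.7% at 5 weeks, 59.8% at 8 weeks, 31% after I/R and 11.4% in MI. Of 19 further matrix metalloproteinases, 7 were abundant enough to test at 5 weeks and 3 rose: Mmp12, the macrophage elastase (4.14 ± 0.29, from 0.702 to 14.2 CPM), Mmp19 (1.99 ± 0.15) and Mmp23 (1.34 ± 0.11). At 8 weeks 6 of 10 rose, among them Mmp23 (2.14 ± 0.22) and Mmp19 (2.01 ± 0.21), while Mmp13, a collagenase, fell (-3.16 ± 0.49, from 2.44 to 0.301 CPM). After I/R 6 of 11 rose, among them Mmp9, a gelatinase known from neutrophils (2.99 ± 0.43). In MI 1 of 11 rose, Mmp23 (1.22 ± 0.15). The counts at 5 weeks and in MI lie near the share of all genes called. The median log2 change of this list was 0.13 at 5 weeks, 1.02 at 8 weeks, 1.12 after I/R and 0.22 in MI.
Among 10 further ADAM genes tested, 3 rose and 2 fell at 5 weeks, 4 rose and 3 fell at 8 weeks, 4 rose after I/R and 2 in MI. At 5 and 8 weeks these counts are close to the 43.7% and 59.8% of all genes called. Adam12, known from activated mesenchymal cells, rose at 5 weeks (2.14 ± 0.33) and after I/R (3.61 ± 0.34). Adam9 rose at both ages (0.79 ± 0.07 and 1.29 ± 0.09), and Adam11 fell (-0.51 ± 0.13 and -1.15 ± 0.18).
Of 16 ADAMTS genes tested, 5 rose and 3 fell at 5 weeks, 10 rose and 3 fell at 8 weeks, 6 rose and 1 fell after I/R, and 4 rose in MI. The 8 of 16 called at 5 weeks are near the 43.7% of all genes. Adamts2, a procollagen processing enzyme, passed in all 4 (1.24 ± 0.08, 2.31 ± 0.17, 1.6 ± 0.23 and 1.35 ± 0.23), and Adamts7 fell at 5 weeks, at 8 weeks and after I/R (-1.22 ± 0.09, -1.84 ± 0.16 and -0.71 ± 0.24).

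**Figure D4:**
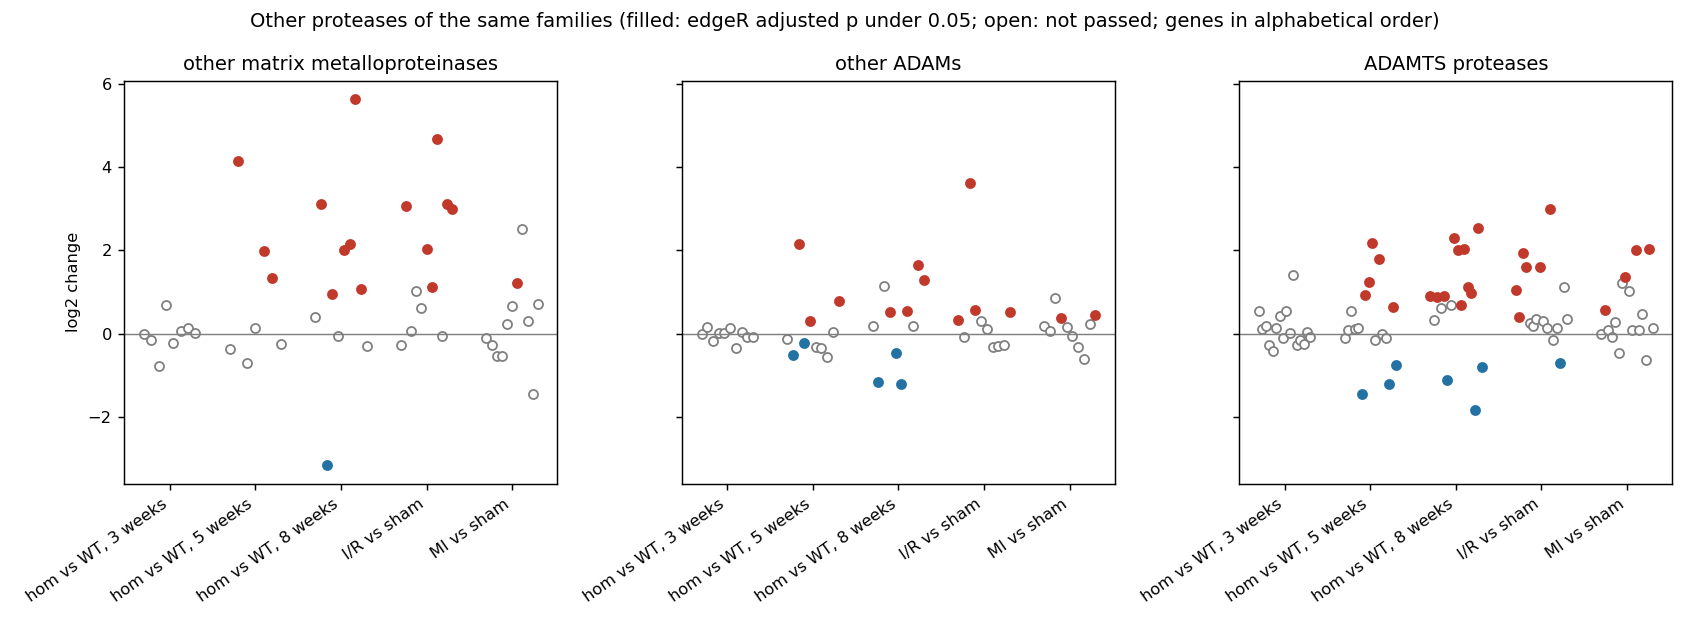
The log2 change (vertical axis) of each tested gene of 3 further protease lists in 5 comparisons; filled points had an edgeR adjusted p under 0.05, red above 0 and blue below. None was filled at 3 weeks, and both directions occur among the ADAM and ADAMTS genes at 5 and 8 weeks.

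Of 14 activators, receptors and other inhibitors tested at 5 weeks, 4 rose and 3 fell, and of 16 at 8 weeks 10 rose and 2 fell, against 43.7% and 59.8% of all genes called; the 5-week count is near that share. Cd63, a cell surface partner of Timp1 protein, rose at 5 weeks (1.35 ± 0.07), 8 weeks (1.38 ± 0.15) and after I/R (0.85 ± 0.14). Lrp1, an endocytic receptor that clears metalloproteinases, rose at 5 weeks (0.51 ± 0.07), 8 weeks (1.51 ± 0.12) and in MI (0.93 ± 0.18). Bsg, whose product can induce metalloproteinases, fell at 8 weeks (-0.62 ± 0.11) and after I/R (-0.37 ± 0.09).
In the plasminogen activator system, which feeds into metalloproteinase activation, 5 of 5 genes tested rose at 5 weeks, 4 at 8 weeks, 3 after I/R and 3 in MI, against 22.3%, 30.8%, 16.9% and 6.62% of all genes called higher.
Among cathepsins and other matrix proteases 9 of 13 rose and 1 fell at 5 weeks, and 10 of 14 rose and 1 fell at 8 weeks, against 43.7% and 59.8% of all genes called in either direction. Ctss, a lysosomal protease known from macrophages, rose by 2.83 ± 0.11 and 3.23 ± 0.28.

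Of the 18 matrix substrate genes, such as collagens and fibronectin, 12 rose and 0 fell at 5 weeks, 17 rose and 1 fell at 8 weeks, 11 rose after I/R and 12 rose in MI, against 22.3%, 30.8%, 16.9% and 6.62% of all genes called higher. Their median log2 changes were 0.99, 1.83, 1.02 and 0.83. Col1a1, Col1a2, Col3a1 and Dcn stand in this list and among the fibroblast markers. Col3a1, a fibrillar collagen chain, rose by 2.05 ± 0.09 at 5 weeks, and Lamb1, a basement membrane laminin chain, was the gene that fell at 8 weeks (-0.67 ± 0.08). Of the substrates that ADAM and membrane proteases shed, 11 of 14 rose and 1 fell at 5 weeks, and 12 of 15 rose at 8 weeks, against the same shares. Hbegf, a growth factor released by ADAM proteases, rose at 5 weeks (1.47 ± 0.09), and the adhesion receptor Cd44 rose at 5 weeks (1.46 ± 0.12), 8 weeks (2.61 ± 0.22), after I/R (1.81 ± 0.20) and in MI (0.95 ± 0.20).

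Across groups the order of the means gave different shapes. It is an untested description, since the groups differ in age as well as genotype and surgery, and the libraries come in differently named series. Timp1 ran from 2.55 CPM in 8-week wild type to 105 CPM in 5-week homozygous hearts, 41.2-fold, and the only neighbours in its order that did not overlap were 3-week homozygous and MI, and MI and 8-week homozygous. Mmp3 spanned 56.3-fold and Adam8 41.6-fold, each with 1 gap: for Mmp3 between I/R and the 8-week homozygous hearts, for Adam8 between the 3- and 5-week homozygous hearts. Mmp2 spanned 9.05-fold with its gap under the 8-week homozygous hearts. Timp4 and Adam19 spanned 5.08-fold and 2.42-fold, and all neighbouring groups overlapped.
The genes whose log2 level ran most alike over the 39 libraries were Sprr1a for Timp1 (Pearson r = 0.965), Mxra8 for Timp2 (0.981), Slc43a3 for Timp3 (0.893) and Ankrd9 for Timp4 (0.869). For the proteases they were Cyth3 for Mmp2 (0.952), Cyp1b1 for Mmp3 (0.952), Col5a2 for Mmp14 (0.958), Mlxipl for Mmp15 (0.963), Hmox1 for Adam8 (0.970) and Spon2 for Adam19 (0.757). The points share groups, depth and library sets, and 10530 genes with a mean of at least 5 CPM were compared.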

How the data were processed

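RNA of mouse left ventricles was sequenced from TruSeq stranded mRNA libraries, per the labels. The authors deposited whole-number read counts per Ensembl gene for 39 libraries; the submitters' processing notes name STAR 2.7.3a, featureCounts of Subread 2.0.0 and mm10. For the annotation release, the strand setting and multimapping reads, the sources used here give nothing. Symbols, positions and exon lengths came from GENCODE vM21, which named 36429 of 38293 genes; the rest held 0.133% of the counts. The members and lists were chosen with earlier results of these data known.

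Each age, and the operated hearts, were fitted separately with edgeR 4.0.16 (TMM, filterByExpr, quasi-likelihood test, Benjamini-Hochberg over all genes tested); differences between effects came from 1 fit of all 39 libraries. SEs are the log2 change over the square root of F. From each list and comparison, up to 3 called genes with at least 1 CPM and the smallest p, plus the first called in the other direction, could be named. Promoter windows of 9 genes came from RefSeq. Likeness used log2(CPM + 1). The fits were tested on simulated data. The values of 1 listed gene are not reported here. None of 57 replicate pairs were identical, and the lowest chi-square per gene was 4.03. Alternatives were RLE normalization, library size alone, no filter, DESeq2 1.42.0, all 39 libraries, a replicate block, age-matched shams and leaving out each library.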

Additional observations from a re-analysis of the deposited data

Results flagged for a closer look

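In 7 of 90 gene and group pairs with 4 libraries, 1 library stood apart by Dixon's test, which chance gives in about 1 of 20. Heterozygous replicate 2 was high for Timp1 (7.71 CPM, others 2.59 to 3.08), Timp2 (174 CPM, others 126 to 129) and Mmp2 (142 CPM, others 81.6 to 85.8). Its fibroblast marker sum of 4375 CPM was also the highest of the group, and the part of that in these values was not tested. Homozygous replicate 1 at 8 weeks was low for Mmp2 (323 CPM, others 686 to 734), and its fibroblast sum, 8576 CPM, was the lowest of its group. Timp1 was at 7.10 CPM in 5-week wild-type replicate 1 (others 3.00 to 3.67), Mmp14 at 23.8 CPM in 20-week sham replicate 2 (others 16.1 to 17.1) and Mmp15 at 179.8 CPM in heterozygous replicate 1 (others about 164).

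The genotype effect differed between 3 and 5 weeks for Timp1 (3.84), Timp2 (0.56), Mmp15 (-0.95) and Adam8 (2.17), in log2 units and by edgeR's test of the difference. Between 5 and 8 weeks it differed for Timp2 (1.52), Timp3 (2.23), Timp4 (1.56), Mmp2 (2.01), Mmp3 (3.06), Mmp14 (1.03) and Mmp15 (-1.81). The 8-week homozygous effect differed from the MI effect for Timp1 (2.92), Timp2 (1.19), Timp3 (1.24), Timp4 (1.18), Mmp2 (1.80), Mmp3 (3.78), Mmp14 (1.51), Mmp15 (-2.43) and Adam8 (2.94).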

How the results depend on the processing

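Of 1700 recomputed values for 110 changes of the 10 genes, 1618 kept direction and side of the threshold, 28 lost a call, 13 gained one and 41 reversed. No called change reversed, and the cause of the reversals and of the moves below was not tested. At 8 weeks Adam19, homozygous against wild type, was -0.0039 with RLE, -0.023 without the filter, -0.14 with a replicate block and -0.0072 by DESeq2. In heterozygous against wild-type hearts the replicate block gave 0.10 for Timp3, 0.10 for Mmp3, -0.054 for Mmp14 and -0.039 for Adam19, and library size alone gave -0.027 for Mmp14. Library size alone gave 0.15 for Adam19, homozygous against heterozygous, and 12-week shams gave -0.16 for Timp3 after I/R.

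Leaving out single libraries reversed some uncalled values. The ranges were -0.070 to 0.13 (Timp4) and -0.28 to 0.14 (Adam19) for homozygous against wild type at 8 weeks, and -0.34 to 0.058 (Adam19) against heterozygous. Heterozygous against wild type they were -0.056 to 0.11 (Timp2), -0.091 to 0.064 (Timp3), -0.047 to 0.24 (Mmp2), -0.12 to 0.16 (Mmp3), -0.18 to 0.10 (Mmp14) and -0.089 to 0.22 (Adam19). They were -0.086 to 0.28 for Timp3 after I/R, -0.15 to 0.44 for Adam19 in MI, -0.046 to 0.46 for Timp1 and -0.12 to 0.49 for Adam8 between 5 and 8 weeks, and -0.44 to 0.15 for Adam19 between the 8-week homozygous and MI effects.

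At 3 weeks the genes called were 25 without the filter, 112 by DESeq2 and 40 in the fit of all 39 libraries, and 0 to 4 on leaving out a library; 1 of the 10 genes, Adam19, was called in each of the first 3, and 0 to 1 on leaving out a library. Age-matched shams gave 2136 genes in I/R, and 941 genes and 3 of the 10 in MI. In MI, leaving out a library gave 663 to 1570 genes and 3 to 5 of the 10. Replicate numbers did not pair the libraries (22 same-numbered pairs, r from -0.141 to 0.242); with the replicate block 5901 genes were called at 5 weeks, 8170 at 8 weeks, 3529 in I/R and 1165 in MI, and Timp4 in MI was not (adjusted p = 0.052, edgeR). Scaling by library size alone moved the median of all genes by 0.21 at 5 weeks, 0.16 at 8 weeks, 0.23 in I/R and 0.11 in MI, and the share of calls that were higher from 51.0% to 79.2%, 51.5% to 63.6%, 54.5% to 90.7% and 58.1% to 81.6%. That share went from 51.6% to 67.0% for homozygous against heterozygous, 55.9% to 80.5% for I/R against MI, 54.4% to 82.2% from 3 to 5 weeks and 51.0% to 39.2% from 5 to 8 weeks.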
